A study of Mus musculus with 6 samples.

Results

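The 9 genes described here are erythroid regulators and genes of the red cell surface, iron supply and carbon dioxide handling: Klf1, Gata1, Epor, Tfrc, Ermap, Add2, Rhd, Car1 and Car2. They were taken by symbol from the 47729 genes of the deposited count table, and 9 of 9 were found and passed the filter on low counts that left 15686 genes to test. RNA was measured in 6 libraries of mouse bone marrow, 3 from mice lacking the SNORD113-114 cluster of small nucleolar RNA genes (cluster KO) and 3 from wildtype mice. All 6 are labelled as bone marrow, the KO libraries also as mutant, and the labels name no treatment, strain, age, sex or way in which the deletion was made. No label ties a library to 1 animal, so the p-values measure the spread between libraries, which may be technical in part. Bulk RNA cannot tell fewer cells of a type from less RNA per cell.

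Red cells arise in the marrow from progenitors that first expand under the hormone erythropoietin and then fill with hemoglobin. The transcription factors GATA1 and KLF1 switch on most genes of that program, GATA1 through GATA letters in DNA and KLF1 through CACCC-type letters. Erythropoietin acts through its receptor EPOR and the kinase JAK2, and transferrin receptor 1, the product of Tfrc, brings in the iron for heme. The later products give the red cell its surface and skeleton (ERMAP, RHD, beta-adducin from Add2) and let it convert carbon dioxide to bicarbonate (the carbonic anhydrases from Car1 and Car2).

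The libraries held 17663369 to 23459168 reads on genes, and a count of 0 allows up to 3 counts, 0.126 to 0.170 CPM (reads scaled to a common library size), a limit that covers counting error only. The 9 genes had 553 to 108473 reads each per library, far above that floor. Values below are CPM on library sizes scaled by the trimmed mean of M-values (TMM), unless raw counts are named. Among markers of the labelled tissue, the neutrophil gene S100a8 lay at 1894 to 5655 CPM, the B cell gene Cd79a at 84.2 to 449 CPM and the progenitor receptor gene Kit at 242 to 362 CPM. The neutrophil precursor gene Elane was at 2.18 CPM in cluster KO 2 and at 113 to 709 CPM in the other libraries. Some markers of late erythroid cells were scarce: globin genes took 0.0217% to 0.0859% of the reads, Slc4a1 (band 3) was at 0.186 to 2.10 CPM and Alas2 (erythroid heme synthesis) at 1.04 to 6.01 CPM. The labels name no sort and no lysis of red cells. The genotypes also differed in sex-linked genes: Xist was at 0.0840 to 1.92 CPM in cluster KO and 228 to 249 CPM in wildtype, and 4 Y-linked genes (Kdm5d, Uty, Ddx3y, Eif2s3y) summed to 230.0 to 315 CPM in cluster KO and 50.02 to 73.0 CPM in wildtype. The wildtype libraries thus held reads of both kinds, and the effects of genotype and of this difference cannot be told apart in any result below. Reads assigned to no gene feature, called reads outside genes below, may include reads in introns, as the counting mode is not given. Their share of the reads was 10.05%, 8.59% and 7.29% in cluster KO 1, 2 and 3. In wildtype 1, 2 and 3 it was 10.03%, 10.5% and 11.1%.

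Cluster KO marrow had less RNA of Ermap, Add2 and Epor than wildtype marrow, and none of the 9 genes passed the test in the other direction. Ermap was 2.22-fold lower, Add2 2.14-fold lower and Epor 1.31-fold lower by mean CPM. The Epor call lay near the threshold and held in 8 of 16 alternative fits. Klf1, Rhd and Car2 had higher means in cluster KO by 1.34-fold, 1.35-fold and 1.37-fold, with overlapping libraries, and did not pass. By edgeR's quasi-likelihood test with Benjamini-Hochberg adjustment at 0.05, 3 of 9 genes (33.3%) were called, against 27.9% of all 15686 genes tested, so the share is close to that background. All tested genes were called lower in 12.1% of cases and higher in 15.9%. The count of 0 genes called higher compares with 3 at an unadjusted p under 0.05 in edgeR and 1 (Car2) in DESeq2. It rested on 1 library: without cluster KO 1, 4 of the 9 were called higher (Klf1, Gata1, Rhd and Car2) and 2 lower. The libraries of the genotypes did not overlap for 3 of the 9 genes, all lower in cluster KO, against 46.0% of tested genes in either direction, 23.1% lower and 22.9% higher. The median log2 fold change was -0.12 over the 9 genes and 0.0024 over all tested genes. With upper-quartile scaling, which moved the median of all genes to -0.10, the split of all calls went from 2487 higher and 1895 lower to 2100 higher and 2411 lower.

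**Figure D1:**
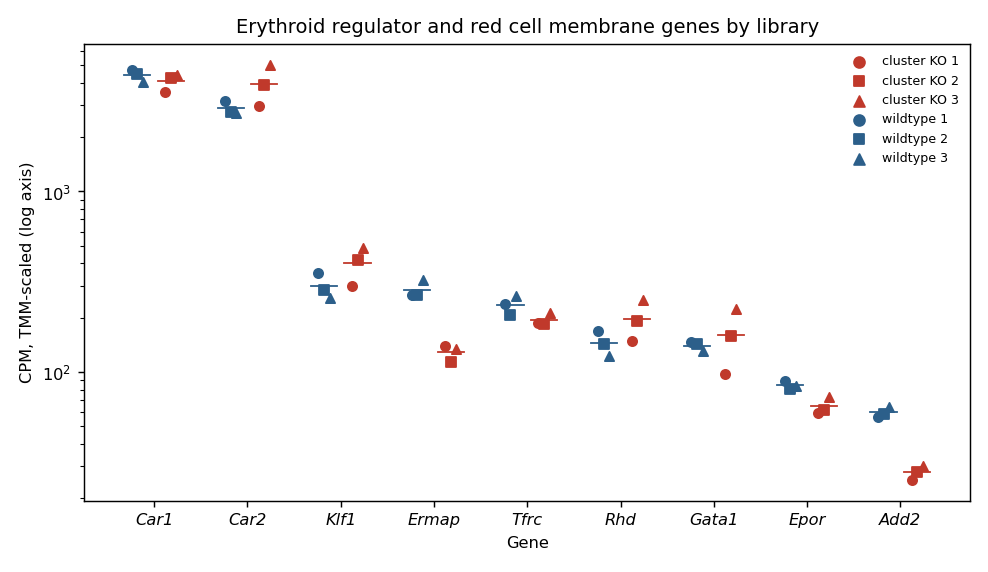
Normalised read counts (TMM-scaled CPM, log axis) of the 9 genes, 1 point per library (wildtype blue, cluster KO red, the marker shape giving the library number), with a line at the mean of each genotype. Ermap, Add2 and Epor have every cluster KO library below every wildtype library, while the other 6 genes overlap.

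**Figure D2:**
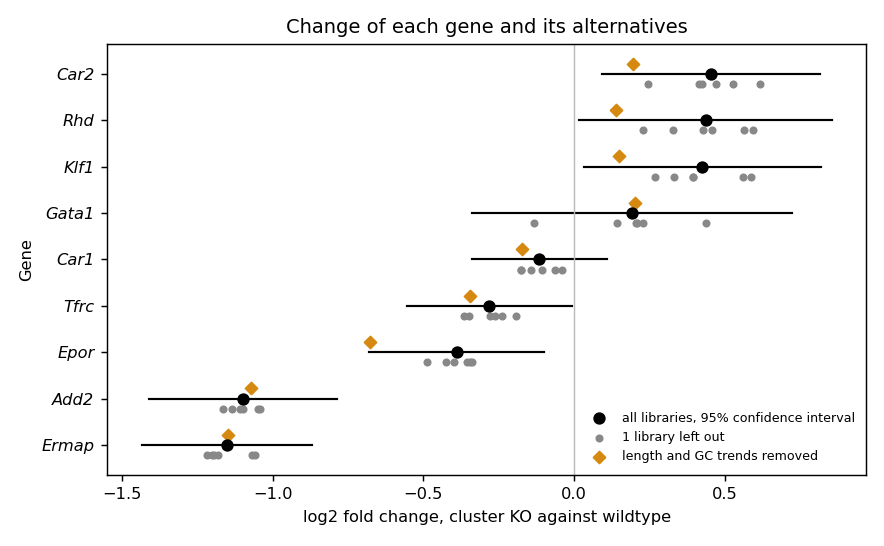
Log2 fold change of cluster KO against wildtype for the 9 genes, with 95% confidence intervals from the edgeR fit (black), the values with 1 library left out (grey) and those with length and GC trends removed (orange). Ermap (-1.15) and Add2 (-1.10) stand apart from the other genes, which lie between -0.39 and 0.45.

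The transcription factor genes come first. Klf1 (ENSMUSG00000054191, chr8:84901928-84905291, plus strand, GRCm38) encodes a zinc finger activator of globin, membrane and heme genes. It measured 299, 419 and 484 CPM in cluster KO 1, 2 and 3, and 352, 284 and 258 CPM in wildtype 1, 2 and 3. Cluster KO 2 and 3 were above every wildtype library, and cluster KO 1 was below wildtype 1. Klf1 had a log2 fold change of 0.43 (SE 0.18, 95% interval 0.03 to 0.82, adjusted p = 0.0979) and did not pass. The outcome rested on single libraries: without cluster KO 1 the log2 fold change was 0.59 and passed (adjusted p = 0.00866 in edgeR), and without cluster KO 3 it was 0.27. Removing per-library trends over transcript length and GC content left 0.15.

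Gata1 (ENSMUSG00000031162, chrX:7959260-7978071, minus strand) encodes the zinc finger factor of erythroid cells, megakaryocytes, mast cells and eosinophils. Cluster KO 1, 2 and 3 measured 97.7, 157 and 224 CPM, and wildtype 1, 2 and 3 measured 147, 143 and 129.98 CPM. The cluster KO libraries spanned 2.29-fold and lay on both sides of the wildtype libraries, which spanned 1.13-fold. The SD of log2 CPM was 0.60 in cluster KO and 0.09 in wildtype (n = 3 each). For Gata1 the log2 fold change was 0.19 (SE 0.24, 95% interval -0.34 to 0.72, adjusted p = 0.579 in edgeR). It was 0.44 without cluster KO 1, which passed (adjusted p = 0.0442), and -0.13 without cluster KO 3, so even the direction rested on single libraries.

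The receptors bring hormone and iron to the cell. Epor (ENSMUSG00000006235, chr9:21958897-21963506, minus strand) measured 58.9, 61.7 and 72.9 CPM in cluster KO 1, 2 and 3 and 89.6, 80.5 and 83.6 CPM in wildtype 1, 2 and 3. Every cluster KO library was below every wildtype library, by a margin that the edgeR test placed just inside the threshold. Epor had a log2 fold change of -0.39 (SE 0.13, 95% interval -0.68 to -0.10, adjusted p = 0.0494). The call held in 8 of 16 alternative fits, and the adjusted p ran from 0.00463 with trends over transcript length and GC content removed (log2 fold change -0.68) to 0.183 without cluster KO 2. It was also lost without cluster KO 1 (0.0706), wildtype 1 (0.147), wildtype 2 (0.108) or wildtype 3 (0.112), and with the replicate number as a block (0.129). DESeq2 size factors (0.0542) and no filter on low counts (0.105), with all 6 libraries kept, lost it too.

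Tfrc (ENSMUSG00000022797, chr16:32608920-32632794, plus strand) measured 187, 184 and 213 CPM in cluster KO 1, 2 and 3 and 237, 208 and 265 CPM in wildtype 1, 2 and 3. Cluster KO 3 lay above wildtype 2, and the other cluster KO libraries lay below all wildtype ones. The Tfrc difference on the log2 scale was -0.28 (SE 0.12, 95% interval -0.55 to -0.01, adjusted p = 0.114 in edgeR) and did not pass, except with upper-quartile scaling (0.0357).

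Of the membrane and skeleton genes, Ermap and Add2 were called lower and Rhd was not called. Ermap (ENSMUSG00000028644, chr4:119175457-119190011, minus strand) encodes a butyrophilin-like protein of the red cell surface that carries the Scianna blood group in humans. It measured 139, 114 and 134 CPM in cluster KO 1, 2 and 3, against 267, 269 and 323 CPM in wildtype 1, 2 and 3. Every cluster KO library was below every wildtype library, with a wide gap between the genotypes. Its log2 fold change was -1.15 (SE 0.13, 95% interval -1.44 to -0.87, adjusted p = 0.00105 in edgeR). It passed in 16 of 16 alternatives, with log2 fold changes of -1.26 to -1.06 and adjusted p of 3.73e-13 to 0.0167.

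Add2 (ENSMUSG00000030000, chr6:86028681-86124409, plus strand) encodes beta-adducin, which caps actin filaments where they meet spectrin under the membrane. Cluster KO 1, 2 and 3 measured 25.2, 28.0 and 30.3 CPM, and wildtype 1, 2 and 3 measured 56.6, 58.7 and 63.8 CPM. Both genotypes were tight, with SDs of 2.56 and 3.74 CPM (n = 3 each), and far apart. Add2 had a log2 fold change of -1.10 (SE 0.14, 95% interval -1.41 to -0.79, adjusted p = 0.00193 in edgeR), and it passed in 16 of 16 alternatives (log2 fold change -1.21 to -1.04, adjusted p 2.83e-10 to 0.0237). An antisense gene, Gm44089, shares 356 exon bases with Add2 (3.51% of its exon bases), and reads of the pair cannot be told apart there because the libraries carry no strand.

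Rhd (ENSMUSG00000028825, chr4:134864536-134896172, plus strand) encodes the mouse Rh blood group protein, which sits in the membrane with its relative RHAG. It measured 148, 192 and 249 CPM in cluster KO 1, 2 and 3 and 169, 143 and 123 CPM in wildtype 1, 2 and 3. Cluster KO 1 fell among the wildtype libraries, and the other cluster KO libraries were above them. On the log2 scale the fold change was 0.44 (SE 0.19, 95% interval 0.02 to 0.86, adjusted p = 0.109 in edgeR). Without cluster KO 1 it was 0.59 and passed (adjusted p = 0.0157), without cluster KO 3 it was 0.23, and with the length and GC trends removed it was 0.14.

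Both carbonic anhydrase genes lie on chromosome 3. Car1 (ENSMUSG00000027556, chr3:14766216-14808368, minus strand) measured 3573, 4236 and 4406 CPM in cluster KO 1, 2 and 3 and 4730.5, 4469 and 4030.4 CPM in wildtype 1, 2 and 3. The genotypes overlapped, and the log2 fold change was -0.12 (SE 0.10, 95% interval -0.34 to 0.11, adjusted p = 0.422 in edgeR). It passed in 0 of 16 alternatives.

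Car2 (ENSMUSG00000027562, chr3:14886273-14900770, plus strand), whose enzyme is also made by osteoclasts and other acid-secreting cells, measured 2958, 3887 and 5033 CPM in cluster KO 1, 2 and 3. Wildtype 1, 2 and 3 measured 3176, 2757 and 2732 CPM. Only cluster KO 1 reached into the wildtype range. For Car2 the log2 fold change was 0.45 (SE 0.16, 95% interval 0.09 to 0.82, adjusted p = 0.0608 in edgeR), and it passed in 3 of 16 alternatives: library totals only (0.0452), DESeq2 (0.0343) and without cluster KO 1 (log2 fold change 0.62, 0.00277). It was 0.24 without cluster KO 3 and 0.20 with the length and GC trends removed.

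On a per-length scale (RPKM, CPM per kilobase of merged exons), the level order in wildtype marrow was Car1 (3534), Car2 (1192), Klf1 (195), Rhd (91.1), Gata1 (57.3), Ermap (54.0), Epor (42.5), Tfrc (38.2) and Add2 (5.89). The neighbours Gata1 and Ermap overlapped between libraries, as did Epor and Tfrc, and all other neighbours were separate. In cluster KO the order was Car1 (3262), Car2 (1635), Klf1 (262), Rhd (123), Gata1 (65.5), Epor (32.4), Tfrc (31.5), Ermap (24.3) and Add2 (2.75). Ermap moved below Epor and Tfrc, and Epor and Tfrc were the only neighbours that overlapped. These levels and their order are a description that rests on merged exon lengths. Those are 5297 bases for Ermap, 6185 for Tfrc and 1989 for Epor, against median transcript lengths of 680.5, 1860 and 1210 bases. Another choice of length may give another order, also for Ermap against Epor and Tfrc.

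The DNA before these genes is shown because GATA1 and KLF1 act on promoters of this kind. RefSeq promoters (GRCm38.p6) were matched for 7 of the 9 genes, that is, not for Car1 and Car2. Each line gives 100 bases that end at or before the start, 5′ to 3′ on the gene's strand, with matches to GATA letters (GATA with an A or T just before it and an A or G just after it) or KLF letters (CCNCNCCC) on either strand in capitals, matches that overlap each other included. The windows are chr8:84901828-84901927 for Klf1, chrX:7967911-7968010 for Gata1, chr9:21963577-21963676 for Epor, chr16:32608796-32608895 for Tfrc, chr4:119190012-119190111 for Ermap, chr6:86028581-86028680 for Add2 and chr4:134864436-134864535 for Rhd. The Klf1 and Ermap windows were moved up by 54 and 16 bases to leave out GENCODE exon bases, and the Gata1 start lies inside the GENCODE gene.
Klf1: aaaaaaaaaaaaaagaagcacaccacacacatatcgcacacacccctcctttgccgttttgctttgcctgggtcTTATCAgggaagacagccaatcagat
Ermap: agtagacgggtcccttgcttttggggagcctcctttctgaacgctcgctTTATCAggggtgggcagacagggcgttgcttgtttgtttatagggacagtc
Add2: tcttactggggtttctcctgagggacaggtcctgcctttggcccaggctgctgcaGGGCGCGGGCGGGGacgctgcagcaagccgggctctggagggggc
Rhd: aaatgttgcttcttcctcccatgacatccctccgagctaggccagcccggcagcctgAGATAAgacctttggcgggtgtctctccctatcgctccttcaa
Epor: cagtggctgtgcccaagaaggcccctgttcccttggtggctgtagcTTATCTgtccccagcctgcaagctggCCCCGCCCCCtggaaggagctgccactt
Gata1: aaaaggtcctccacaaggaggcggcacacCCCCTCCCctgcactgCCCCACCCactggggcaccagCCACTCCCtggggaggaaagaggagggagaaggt
Tfrc: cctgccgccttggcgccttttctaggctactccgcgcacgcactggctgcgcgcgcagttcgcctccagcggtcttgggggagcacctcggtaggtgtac

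In the 250 bases before the RefSeq start, GATA letters stood in 5 of the 7 promoters: Klf1, Epor, Ermap, Rhd and Add2, where the match lies 234 to 229 bases before the start and outside the printed window. The Ermap match ended 62 bases and the Rhd match 38 bases before the start. Of all 32851 RefSeq promoters, 26.5% held such letters in 250 bases and 10.4% in the last 100 bases, where 4 of the 7 did. KLF letters stood in 4 of the 7 (Gata1, Epor, Tfrc, Add2) against 45.9% of all promoters in 250 bases, and in 3 of the 7 against 31.4% in the last 100 bases. The genes called lower had GATA letters in 3 of 3 promoters, as did Klf1 and Rhd, which were not called. A match describes letters in a window and says nothing of binding, and the 100-base window was chosen after the matches were seen.

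Over the 6 libraries the 9 genes fell into sets by Pearson r of log2 CPM (n = 6, libraries of both genotypes, described without a test). Each r includes the gap between genotypes, so a high r does not show that genes moved together within a genotype. Within cluster KO, for example, library 1 had the highest Ermap (139 CPM) and the lowest Add2 (25.2 CPM). Klf1, Rhd and Car2 had r of 0.97 to 0.99 with each other, and Gata1 had 0.78, 0.80 and 0.82 with Klf1, Rhd and Car2. Ermap and Add2 had r = 0.97, Epor had 0.92 with Add2 and 0.87 with Ermap, and Tfrc had 0.81 to 0.85 with Epor, Ermap and Add2. Klf1 and Ermap had r = -0.71, and Car1 and Car2 had r = 0.26. Over the same libraries the genes most like Klf1 were Pms1, Mospd1 and Yipf5, with r of at least 0.995. The most like Ermap were Irak1, Eif4g2 and Mogs (0.998 to 0.999) and the most like Add2 were March8, Mrfap1 and Chd1l (0.996 to 0.999). Those for Gata1 were Stard10, Glo1 and Dr1 (0.992 to 0.996), for Epor Sppl2b, Cul4a and Kctd7 (0.989 to 0.998), and for Tfrc Prpf6, Gm37204 and Mfsd14b (0.976 to 0.981). Rhd was most like Pla2g4a, Fancf and Pja1 (0.994 to 0.996), Car1 like D030056L22Rik, Ttc9c and Vegfb (0.965 to 0.976), and Car2 like Spon2, Rtcb and Zfp874a (0.995 to 0.997).

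The share of reads outside genes, meaning reads assigned to no gene feature, moved with part of the set. Klf1, Rhd and Car2 fell in exact order of a rising share over all 6 libraries of both genotypes (r = -0.97, -0.98 and -0.99, n = 6), a pattern found in 197 of 15686 tested genes (1.26%). Another 140 tested genes (0.893%) rose in that order. For the genes called lower the same r was 0.78 (Ermap), 0.67 (Add2) and 0.38 (Epor), in mixed order, values that include the gap between genotypes. Within the 3 cluster KO libraries alone, 7 of the 9 genes fell in order of a rising share, Add2, Epor, Gata1 and Car1 among them, against 27.6% of tested genes. Ermap and Tfrc were the exceptions. Cluster KO 1 and wildtype 1, whose shares were closest (10.05% and 10.03%), differed in 1 direction: 9 of 9 genes were lower in cluster KO 1, against 49.1% of tested genes, a comparison of 2 libraries chosen after the values were seen. The part of this share in the differences was not tested.

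**Figure D3:**
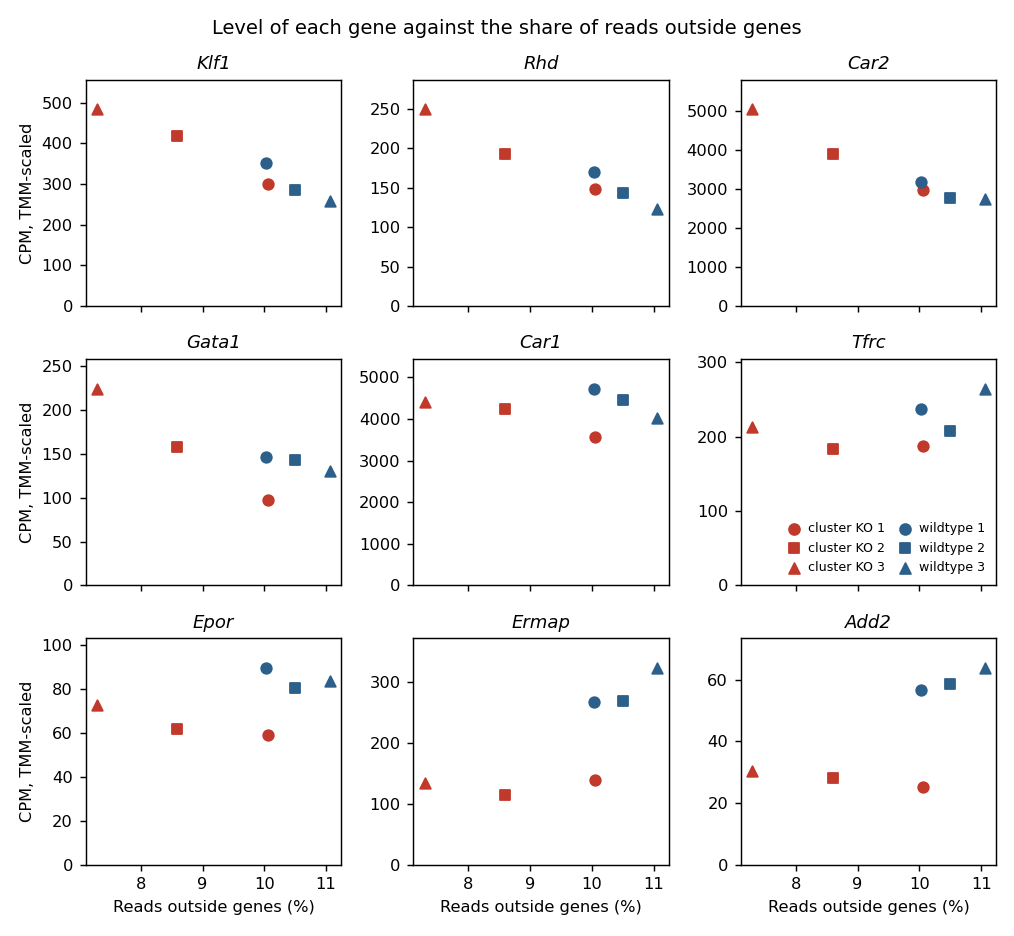
TMM-scaled CPM of the 9 genes against the percentage of reads assigned to no gene feature (reads outside genes). Each library is 1 point, cluster KO red and wildtype blue. Klf1, Rhd and Car2 descend across all 6 libraries of both genotypes, while Ermap, Add2 and Epor lie lower in all 3 cluster KO libraries.

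Ratios within a library compare pairs of genes without library scaling. The 6 ratios were chosen after values were seen (two-sided exact permutation test, smallest possible p 0.1 with 3 against 3). Ermap and Klf1 are not relatives, and their ratio joins changes already given above. Add2 relative to Add1, the alpha-adducin partner gene, was 0.240, 0.230 and 0.272 in cluster KO 1, 2 and 3 and 0.410, 0.404 and 0.433 in wildtype 1, 2 and 3 (log2 difference -0.75, exact permutation p = 0.1, Benjamini-Hochberg adjusted 0.2). Ermap relative to Klf1 was 0.463, 0.272 and 0.277 against 0.759, 0.945 and 1.25 (log2 difference -1.56, exact permutation p = 0.1, adjusted 0.2). Car2 relative to Car1 was 0.828, 0.918 and 1.14 against 0.671, 0.617 and 0.678 (log2 difference 0.54, exact permutation p = 0.1, adjusted 0.2). These 3 ratios did not overlap between genotypes, and their p is the smallest the design allows. Gata1 relative to Gata2 (0.79, exact permutation p = 0.3, adjusted 0.45), Rhd relative to Rhag (0.18, p = 0.6, adjusted 0.7) and Tfrc relative to Tfr2 (0.09, p = 0.7, adjusted 0.7) overlapped.

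**Figure D4:**
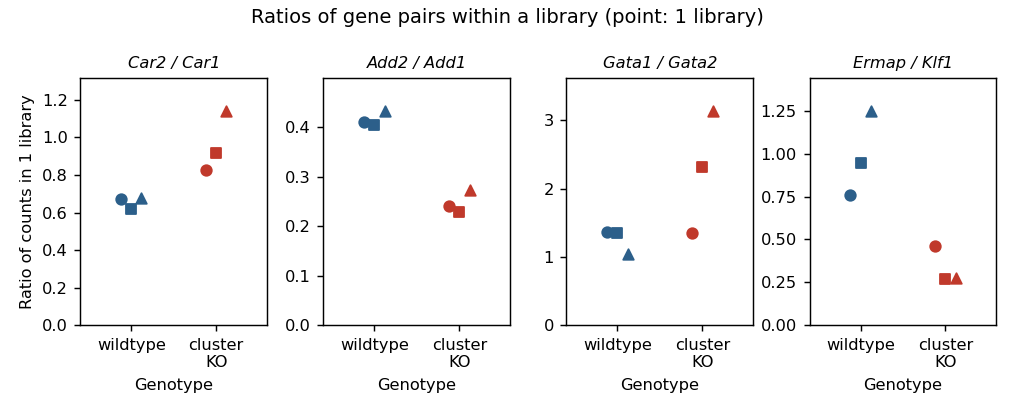
Ratio of counts between 2 genes within each library for 4 of the 6 pairs, 1 point per library, wildtype blue and cluster KO red. Add2 to Add1 and Ermap to Klf1 lie lower in every cluster KO library than in any wildtype one, Car2 to Car1 lies higher, and Gata1 to Gata2 overlaps.

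Among 28 other genes of the erythroid transcription network, 14 were called lower and 4 higher (64.3% in either direction), with a median log2 fold change of -0.41. Over all tested genes 12.1% were lower and 15.9% higher (27.9% in either direction), with a median of 0.0024. The 9 genes are in none of these lists, which were drawn up with earlier results known. Among genes for partners of GATA1, Tal1 fell by 1.22, Zfpm1 (FOG1) by 0.88, Cbfa2t3 (ETO2) by 0.84 and Ldb1 by 0.63, and Gata2, the factor that GATA1 replaces, fell by 0.67 on the log2 scale (edgeR adjusted p = 0.00382, 0.00278, 0.00527, 0.00760 and 0.00447). The partners were not uniform: Gfi1b, named after its values were seen, rose by 1.05 (edgeR adjusted p = 0.0317, overlapping libraries). The Gfi1b call held in only 6 of 16 alternatives. Settings that lost it included DESeq2 and the fits without cluster KO 2, cluster KO 3, wildtype 2 or wildtype 3. Lmo2, also named afterwards, had 0.17 (0.193) and did not pass, and its direction turned with length and GC trends removed. Nfia fell by 0.95. Spi1 (PU.1), the myeloid factor that opposes GATA1, rose by 1.67 (SE 0.21, adjusted p = 0.00189), from 36.7, 31.8 and 23.7 CPM in wildtype to 72.8, 104 and 118 CPM in cluster KO. Nfe2, a factor of globin genes and platelets, rose by 1.002 (SE 0.15, adjusted p = 0.00279). Without wildtype 3 the counts were 2 higher and 9 lower, and without cluster KO 2, cluster KO 3 or wildtype 2 there were 2 higher.

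Of 23 tested genes of erythropoietin receptor signalling, 8 were lower (34.8%) and 3 higher (47.8% in either direction), with a median of -0.33. Over all tested genes 12.1% were lower and 27.9% were called in either direction. Pim1, a kinase gene induced by STAT5, fell by 1.82 on the log2 scale (SE 0.28, edgeR adjusted p = 0.00291), from 33.5, 44.9 and 51.5 CPM in wildtype to 17.3, 11.7 and 7.796 CPM in cluster KO. Ptpn11 (SHP2) fell by 1.02, Sos1 by 0.94, Gab1 by 0.79 and Scrib by 0.92. The inhibitors differed among themselves: Ptpn6 (SHP1) and Socs1 rose by 1.10 and 1.42, and Spred2 fell by 1.16. Of further inhibitor genes, named after their values were seen, Socs2, which STAT5 also induces, rose by 0.62 (edgeR adjusted p = 0.0222). The Socs2 call held in 9 of 16 alternatives, and settings that lost it included those without cluster KO 2, cluster KO 3, wildtype 1 or wildtype 3. Cish (0.42, adjusted p = 0.0822) and Socs3 (-0.38, 0.668) were among those that did not pass. Jak2, the receptor's kinase, had a log2 fold change of -0.0038 (adjusted p = 0.986), Stat5a -0.20 (0.257) and Stat5b -0.36 (0.0921), none of which passed. The direction of Jak2 changed with the scaling. The count of 8 lower was 3 without cluster KO 2, 3 without wildtype 3 and 5 without wildtype 2.

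Of 22 genes of iron uptake and storage, 6 were lower (27.3%) and 3 higher (13.6%), against 12.1% and 15.9% of all tested genes. The median was -0.14, and upper-quartile scaling left 1 higher. Those that fell included the mitochondrial transporter genes Abcb10 (by 0.84) and Slc25a37 (mitoferrin, by 0.52), the heme exporter gene Flvcr1 (by 0.56), Aco1 (by 0.48) and the ferritin heavy chain gene Fth1 (by 0.31). Abcb10 kept its call in 16 of 16 alternatives, Flvcr1 and Fth1 in 10, Slc25a37 in 8 and Aco1 in 6. Ncoa4, the ferritin receptor for autophagy, rose by 1.82, from 9.03, 5.03 and 5.52 CPM to 13.7, 21.8 and 33.97 CPM, and Ftl1 rose by 0.43. The Ncoa4 call held in 16 of 16 alternatives and the Ftl1 call in 8. Tfr2, the relative of Tfrc, had -0.35 (edgeR adjusted p = 0.0809) and did not pass. Only 1 gene was higher without cluster KO 2, cluster KO 3, wildtype 2 or wildtype 3, and 2, 2, 3 and 3 genes were lower without cluster KO 2, wildtype 1, wildtype 2 and wildtype 3.

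Of 33 tested genes of the red cell membrane and skeleton, 7 were lower (21.2%) and 5 higher (15.2%), with a median of -0.12. The higher share is close to the 15.9% of all tested genes, and the share called in either direction was 36.4% against 27.9%. The skeleton genes Epb41 (protein 4.1, by 1.02), Ank1 (ankyrin, by 1.71) and Epb42 (by 1.25) fell with Aqp1, the water channel (by 0.96). Ank1 measured 13.5, 8.82 and 5.89 CPM in cluster KO and 29.1, 27.0 and 36.4 CPM in wildtype. Gypc (glycophorin C, 0.81), Tpm3 (tropomyosin, 0.83) and Abcg2 (0.49) rose. Add1 was lower by -0.35 on the log2 scale (edgeR adjusted p = 0.0436), a call that was lost without each library in turn, while Add3 (gamma-adducin) had -0.13 (0.534) and Rhag 0.35 (0.431). The direction of Rhag changed without cluster KO 3. The 5 higher genes were 1 without cluster KO 2, 3 without cluster KO 3 and 2 without any 1 of the wildtype libraries, while the lower count stayed within 1.5 times.

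Of 8 tested carbonic anhydrase genes other than the pair above, 3 were higher (37.5%) and 0 lower, with a median of 0.48. Over all tested genes 15.9% were higher and 12.1% lower. Car13 rose by 1.32, Car9 by 0.78 and Car11 by 1.90, the last at 0.283 to 1.89 CPM in all libraries. The Car13 call held in 12 of 16 alternatives, the Car9 call in 8 of 16 and the Car11 call in 4 of 15. Car3 had 0.10 (edgeR adjusted p = 0.747), and Car4 had 0 counts in every library. The count of 3 higher was 1 with length and GC trends removed, 1 with the replicate block and 0 with both. It was also 0 without wildtype 3 and 1 without cluster KO 2, cluster KO 3, wildtype 1 or wildtype 2. Of the 4 tested butyrophilin relatives of Ermap, 1 (25.0%), Btnl10, was called, lower by -1.18 on the log2 scale. That share is close to the 27.9% of all tested genes called in either direction. Of 12 measured globin and heme genes, 5 were lower (41.7%) and 2 higher (16.7%), against 12.1% and 15.9% of all tested genes. The globin genes Hba-a1 (-1.41), Hba-a2 (-1.45), Hbb-bs (-1.43) and Hbb-bt (-1.11) fell, and the heme enzyme gene Alad (0.74) rose. The remaining gene called lower and the remaining one called higher also encode heme enzymes. Hbb-bs overlapped between genotypes and kept its call in 10 of 16 alternatives, and Hbb-bt in 11. With length and GC trends removed 1 gene of this list was higher, and with the replicate block 1 was higher and 3 lower. The lower count was 3 without wildtype 2 and 2 without wildtype 3, and the higher count was 4 without cluster KO 1 and 1 without cluster KO 2, wildtype 2 or wildtype 3.

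**Figure D5:**
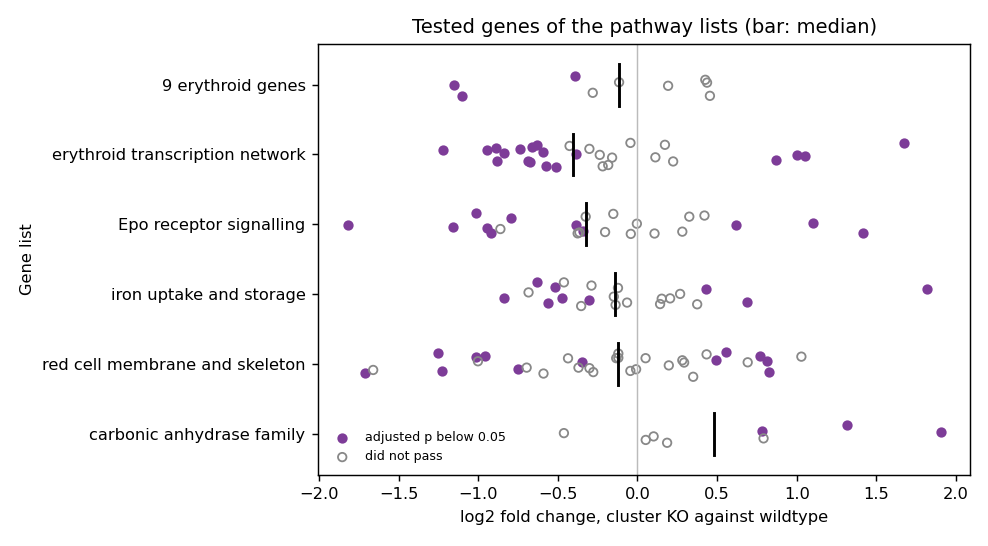
Log2 fold change of every tested gene in the pathway lists, with a bar at each list's median and filled points for genes with an edgeR adjusted p below 0.05. The transcription network has most of its called genes at the lower side (14 of 18), and the carbonic anhydrases have their 3 called genes at the higher side.

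Markers of other cell types and of dividing cells were measured beside the 9 genes. Their counts are read against the 15.9% of tested genes called higher and 12.1% lower. Megakaryocyte and platelet markers, which share Gata1, summed to 308 to 311 CPM in cluster KO and 467 to 559 CPM in wildtype, with 4 of 11 tested lower, among them Pf4 (-1.86) and Itga2b (-1.30), and 1 higher. Mast cell, basophil and eosinophil markers summed to 245 to 275 CPM against 179 to 230.3 CPM, with 1 of 10 higher (Cpa3, 1.22) and 1 lower (Gata2), and Epx was at 0 counts in 5 of 6 libraries. Macrophage markers summed to 127 to 135 CPM against 153 to 177 CPM, with 1 of 11 lower (Siglec1, -0.96). Osteoclast markers, listed because osteoclasts also make the Car2 enzyme, summed to 84.6 to 91.4 CPM against 51.2 to 65.2 CPM. Mmp9 alone gave 12.1 to 45.1 CPM of that sum, and Car2 itself lay at 2732 to 5033 CPM. Of the osteoclast markers 2 of 5 were higher (Acp5 0.93, Mmp9 0.98), calls kept in 8 and 11 of 16 alternatives. Nfatc1 (-0.04), Tnfrsf11a (0.05) and Dcstamp (2.20) were not called, and Ctsk and Calcr were at 0 in 3 and 5 of 6 libraries. Proliferation markers had 4 of 12 higher (Ccnb1, 0.99) and 3 lower (Mki67 -0.54, Top2a -0.45). B lineage markers summed to 1897 to 2128 CPM against 664 to 738 CPM, with 7 of 10 higher (Cd79a, 2.20). Neutrophil markers summed to 10623 to 20216 CPM against 6328 to 12052 CPM, with 3 of 11 higher (Ngp, 1.52). Stem and early progenitor markers summed to 1380.3 to 1391 CPM against 1157 to 1182 CPM, with 5 of 10 higher (Procr, 1.38) and 1 lower. The part of these cell types in the differences of the 9 genes was not tested.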

How the data were processed

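Per the labels, whole bone marrow RNA was turned into poly(A), non-stranded libraries and 6 were pooled for sequencing. Per the submitters' processing notes, bcl2fastq, TopHat2, HTSeq and the mm10 build were used. Not given in the sources used here: tool versions, annotation release and counting mode. The authors deposited unnormalized read counts, 1 row per Ensembl gene. Library sizes and tests excluded the 5 HTSeq summary rows. Groups came from the titles.

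The test was edgeR 4.0.16 (R 4.3.3, TMM, filterByExpr with a minimum count of 10, robust quasi-likelihood, genotype only) over 15686 genes, with Benjamini-Hochberg adjustment at 0.05. The alternatives were DESeq2 1.42.0, other scalings and filters, a replicate block, removal of trends over length and GC content, and each library left out. Leaving out both libraries numbered 3 was added after the data were seen. Gene positions and exon lengths came from GENCODE M21, as did the median transcript lengths used for the trends. For Ermap that median is 680.5 bases against 5297 merged exon bases, so the trend fits treated it as a short gene. The members and lists were chosen with earlier results of these data known. Named genes were the 9, their closest relatives or partners, up to 5 or 8 genes with the smallest p per list, and the 3 genes with the highest r to each of the 9. A few genes on the lists are counted but not reported here. Same-genotype libraries differed by more than sampling noise (chi-square per degree of freedom 11.3 to 64.2).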

Additional observations from a re-analysis of the deposited data

How the results depend on the processing

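Ermap and Add2 kept direction and call under 16 of 16 alternatives, and Epor kept its direction in 16 and its call in 8. Of 64 other named genes, 54 were called and 25 stayed called in all their alternatives. Over 73 genes, 1167 single alternatives gave 963 with the same call, 170 weaker, 12 newly called and 22 of the opposite direction. Same-numbered libraries showed no positive likeness in their deviations (r = -0.17, 0.0076 and -0.14), while cluster KO 3 and wildtype 1 had r = 0.17. With 3 libraries per genotype, such r cannot tell whether equal numbers stand for a shared batch. With the replicate block, 1331 genes were higher and 865 lower, and with length and GC trends also removed 932 and 854. With both libraries numbered 3 left out they were 1303 and 852, and leaving out 1 library at a time gave 1258 to 3151 higher and 742 to 2579 lower. The block and the left-out libraries leave fewer residual degrees of freedom by construction, and the cause of the other shifts was not tested.

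Of the 9 genes, 1 was called higher with library totals only and 1 with DESeq2, and 0 to 4 when 1 library was left out. The transcription network gave 2 higher and 9 lower with the replicate block, 2 higher with block and trends removed, 2 higher with trends removed, 2 higher and 9 lower without both libraries numbered 3, and 2 to 4 higher and 9 to 16 lower when 1 library was left out. Erythropoietin receptor signalling gave 3 lower with the replicate block, 2 with block and trends, 2 without both libraries numbered 3 and 3 to 9 when 1 library was left out. Iron uptake gave 1 higher with upper-quartile scaling, 1 higher and 2 lower with the replicate block, 1 and 1 with block and trends, 1 higher without both libraries numbered 3, and 1 to 3 higher and 2 to 7 lower when 1 library was left out. The membrane list gave 2 higher with the replicate block, 1 with block and trends, 3 with trends removed, 2 without both libraries numbered 3 and 1 to 6 when 1 library was left out. Without both libraries numbered 3 the carbonic anhydrases gave 0 higher and the globin and heme list 1 higher and 2 lower.

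Directions turned for genes that were not called. Gata1 was -0.18 without both libraries numbered 3 and -0.13 to 0.44 when 1 library was left out, and Rhag -0.19 and -0.18 to 0.60. Jak2 was 0.0039 with DESeq2 size factors, 0.0115 with library totals, 0.0216 with DESeq2, 0.0207 without a filter, 0.0036 with the replicate block, 0.139 with block and trends, 0.129 with trends removed, 0.0055 without both libraries numbered 3 and -0.086 to 0.0992 when 1 library was left out. Car3 was -0.0002 with upper-quartile scaling, -0.0681 with block and trends, -0.0563 with trends removed and -0.0595 to 0.210 when 1 library was left out. Lmo2 was -0.116 with trends removed and -0.116 with block and trends, and Socs3 -0.7912 to 0.0106 when 1 library was left out. The log2 ratio of Tfrc to Tfr2 was -0.0106 to 0.191 when 1 library was left out.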
